A study of Mus musculus with 4 samples.

Results

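The Schlafen family was described through 6 genes, Slfn1, Slfn2, Slfn4, Slfn5, Slfn8 and Slfn9, which were picked by symbol from a table of 12584 genes. All 6 were present. Slfn3, another gene of the family in the table, was not one of the 6 and is given beside them where its sequence or its level bears on theirs. The counts came from 34447 single CD45+ cells out of mouse melanomas of the YUMM1.7-OVA RTT line, which carries ovalbumin and has acquired resistance to targeted therapy. All tumours were grown in Rag2-/- mice, whose own T and B cells are missing, and all mice received OT-1 CD8+ T cells on day 7, so that the tumours taken on day 10 had been exposed to the transferred cells for 72 h.

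The 4 groups shared this line, host and transfer. CTRL tumours carried an mCherry control vector. In IRF3/7 tumours the cancer cells, not the sorted immune cells, overexpressed Irf3 and Irf7 from vectors. COX2i tumours were of the mCherry line in mice given the COX2 inhibitor celecoxib, and COX2i + 5-AZA tumours were of the same line in mice given celecoxib and the DNA methyltransferase inhibitor 5-azacitidine. The mice of an experiment were matched for age and sex, and the strains were used as young adults. Each group was 1 library made from 3 tumours that were pooled before the sort, so the comparisons set 1 pool against another and carry no p-value. Intervals in parentheses are exact 95% intervals that cover counting error only.

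Schlafen genes are found in mammals as a cluster of related copies, and many of them are induced by interferon. The mouse proteins are sorted by length into short, intermediate and long forms, all of which share a core that is related to nucleases acting on transfer RNA, while the long forms add a helicase-like domain. Slfn1 is known for holding back the growth of T cells, Slfn2 for keeping T cells and monocytes quiescent and for shielding transfer RNA from cleavage by angiogenin, and Slfn4 for its expression in myeloid cells.

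Depth differed between the libraries, from 26356819 unique molecular identifiers (UMIs) in IRF3/7 to 78722763 in COX2i, and the median cell of IRF3/7 held 3168 UMIs against 6039.5 to 7502 in the other libraries. Levels are summed UMIs scaled to the total UMIs of the same cells, in the usual unit CPM. Monocytes and macrophages, 28828 cells in all, were the main population, and 3 UMIs, the floor for a count of 0, corresponded to between 0.0438 and 0.168 CPM there. Monocytes made up 1.55% of CTRL cells, 72.6% of IRF3/7 cells, 6.11% of COX2i cells and 46.7% of COX2i + 5-AZA cells. Cell classes are the authors' own and were defined by clustering on genes that include this family, Slfn4 being a leading gene of the class Infl_Mono, so that differences between classes are a description. Irf7, an overexpressed factor that is also interferon-induced, stood at 69.3 CPM in monocytes and macrophages of CTRL, 3170.3 CPM in IRF3/7, 92.8 CPM in COX2i and 455 CPM in COX2i + 5-AZA. Of 43 class markers, 42 were in the table and 38 were highest in their own class, with Ccr2, Vcan, Mki67 and Flt3 as exceptions. Of 29259 droplet barcodes, 4472 occurred in 2 libraries and 358 in 3, and 28.1% to 31.7% of the cells of each library shared theirs. Without those cells the number of members past 2-fold was the same in each of the 5 comparisons (6, 0, 4, 4 and 6), and the log2 ratio of Slfn4 was 7.20, 0.34, 2.54, 2.88 and -4.32 in the order in which they are given below. More cells of a class and more RNA per cell cannot be told apart in a sum over classes, and both are given below.

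The 6 genes lie together on chromosome 11, within 239 kb between positions 82951349 and 83190216 of GRCm38. Slfn5 (ENSMUSG00000054404, 82951349 to 82964840, plus strand) comes first, followed by Slfn9 (ENSMUSG00000069793, 82978390 to 82991830) and Slfn8 (ENSMUSG00000035208, 83002158 to 83020810) on the minus strand. Slfn2 (ENSMUSG00000072620, 83065112 to 83070678), Slfn1 (ENSMUSG00000078763, 83116849 to 83122670) and Slfn4 (ENSMUSG00000000204, 83175186 to 83190216) follow on the plus strand, and Slfn3 starts 1.11 kb after the end of Slfn4. The short forms Slfn1 and Slfn2 code for 337 and 378 residues, the intermediate form Slfn4 for 602, and the long forms Slfn5, Slfn8 and Slfn9 for 884, 910 and 910. Slfn8 and Slfn9 are near copies, with 92.7% of aligned coding bases identical and 389 shared stretches of 50 bases, which are 9.30% of those of Slfn8 and 6.52% of those of Slfn9. Slfn4 and Slfn3 are 91.6% identical and share 252 such stretches. Among Slfn1, Slfn2 and Slfn4 the identity was 70.3% to 72.9%. The assay counts ligated probe pairs, and whether a probe binds a neighbouring copy was not tested, so the values of Slfn8, Slfn9 and Slfn4 are uncertain to that extent.

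Promoters from RefSeq (GRCm38.p6, 250 bases before to 50 after each start) are shown because all 6 genes were higher in the same library while only some of these windows hold an interferon motif. All 3 long forms held the core of the interferon-stimulated response element, read as GAAA repeated after a gap of 2 bases on either strand, whereas Slfn1, Slfn2 and Slfn4 did not hold these letters in the window. The core was found in 1131 of 32851 promoters of the same length (3.44%). The letters TTCNNNGAA, searched as the interferon-γ activated site, were in none of the 6 windows and in 8.30% of all promoters. The stretches around the match in the long forms, and the whole window of Slfn4, follow in the direction of each gene, with the match in capitals.
Slfn5, chr11:82951897-82952006, plus strand: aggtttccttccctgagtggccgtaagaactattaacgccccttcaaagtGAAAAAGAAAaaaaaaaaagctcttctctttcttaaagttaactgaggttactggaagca
Slfn9, chr11:82991816-82991925, minus strand: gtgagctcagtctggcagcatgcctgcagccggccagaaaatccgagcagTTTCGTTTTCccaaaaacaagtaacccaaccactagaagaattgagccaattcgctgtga
Slfn8, chr11:83020799-83020908, minus strand: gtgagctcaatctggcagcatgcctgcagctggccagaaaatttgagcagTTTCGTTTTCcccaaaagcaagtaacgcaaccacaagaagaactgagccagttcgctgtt
Slfn4, chr11:83174936-83175235, plus strand: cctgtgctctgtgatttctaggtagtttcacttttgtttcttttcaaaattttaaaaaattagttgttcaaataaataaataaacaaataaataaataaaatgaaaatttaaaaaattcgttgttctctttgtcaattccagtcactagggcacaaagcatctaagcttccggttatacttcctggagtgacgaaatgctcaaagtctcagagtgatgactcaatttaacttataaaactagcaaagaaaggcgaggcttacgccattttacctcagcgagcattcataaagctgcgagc
Counted from the RefSeq start, the match lay 155 bases before it in Slfn5, 45 in Slfn9 and 48 in Slfn8, or 136 from a second listed start of Slfn8. The RefSeq start of Slfn5 is at 82952102, inside the gene as given above, so the match of Slfn5 lies after the first base of that wider gene model. The stretches of Slfn8 and Slfn9 read much alike, and the window of Slfn4 was low in G and C, at 33.7% against 49.0% to 53.0% in the windows of the other members. A match is a description of these letters and says nothing of binding.

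The short forms were considered first. In monocytes and macrophages Slfn1 stood at 18.6 CPM (17.5 to 19.8) in CTRL, 527 CPM (517 to 538) in IRF3/7, 27.4 CPM (26.1 to 28.7) in COX2i and 133 CPM (130 to 136) in COX2i + 5-AZA. IRF3/7 was highest by far, COX2i + 5-AZA came second, and CTRL and COX2i were low. Slfn2 stood at 452 CPM (447 to 458) in CTRL, 2071 CPM (2050 to 2092) in IRF3/7, 413 CPM (408 to 418) in COX2i and 782 CPM (775 to 788) in COX2i + 5-AZA. It kept the same order at the top, with a narrower span between libraries than Slfn1 and with COX2i slightly below CTRL. Levels are compared within a gene only, because the probes of different genes need not capture alike.

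Slfn4, the intermediate form, had the widest span of the 6. It stood at 24.2 CPM (22.9 to 25.6) in CTRL, 3712 CPM (3683 to 3740) in IRF3/7, 33.7 CPM (32.3 to 35.2) in COX2i and 182 CPM (179 to 185) in COX2i + 5-AZA. Its neighbour Slfn3, close to it in sequence, stood at 17.5, 30.7, 23.6 and 16.4 CPM in the same order and did not share that span.

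Among the long forms, Slfn5 stood at 59.1 CPM (57.1 to 61.1) in CTRL, 875 CPM (862 to 889) in IRF3/7, 51.0 CPM (49.3 to 52.8) in COX2i and 120.5 CPM (118 to 123) in COX2i + 5-AZA. Slfn8 stood at 40.3 CPM (38.6 to 42.0) in CTRL, 425 CPM (415 to 435) in IRF3/7, 41.8 CPM (40.2 to 43.4) in COX2i and 86.9 CPM (84.7 to 89.2) in COX2i + 5-AZA. Both were high in IRF3/7, intermediate in COX2i + 5-AZA and low in the other libraries. Slfn9 stood at 7.15 CPM (6.46 to 7.90) in CTRL, 35.0 CPM (32.3 to 37.9) in IRF3/7, 12.3 CPM (11.4 to 13.2) in COX2i and 10.3 CPM (9.51 to 11.1) in COX2i + 5-AZA. Slfn9 was thus the member whose COX2i level lay above that of COX2i + 5-AZA, on 767 and 702 UMIs.

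**Figure D1:**
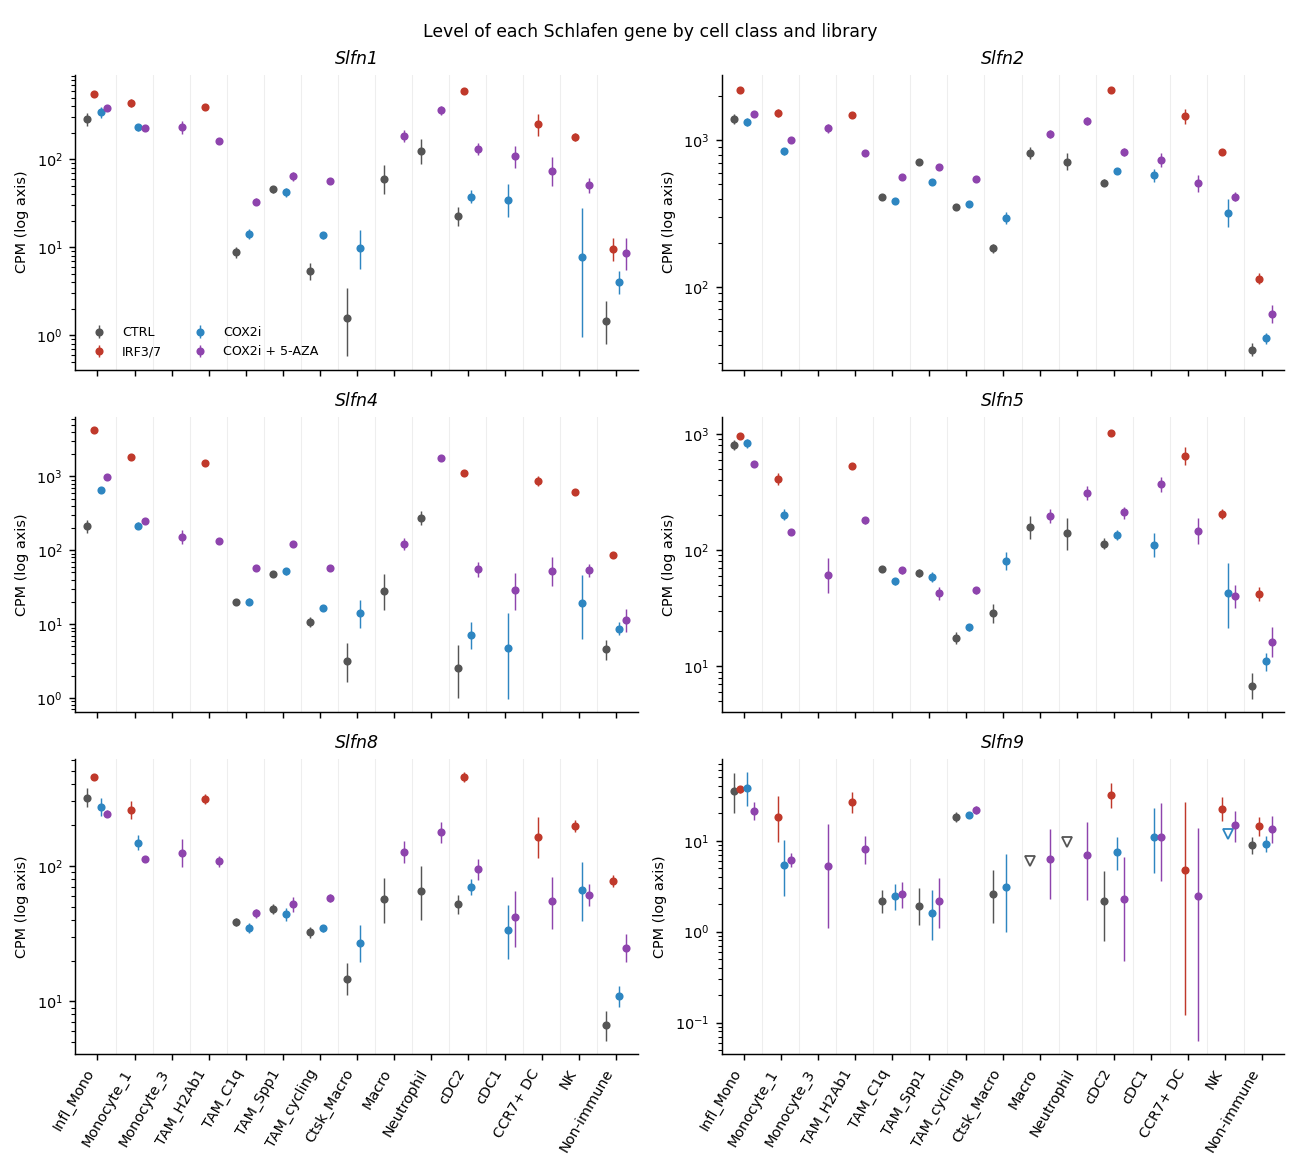
Level of each of the 6 genes (CPM, log axis) in every cell class with at least 50 cells, by library, with exact 95% intervals for counting error; open triangles mark 0 UMIs, drawn at the floor of 3 UMIs. IRF3/7 has no point in classes where it holds fewer than 50 cells, and Slfn4 spans from 2.51 CPM in cDC2 of CTRL to 4184.5 CPM in Infl_Mono of IRF3/7.

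The order of the classes was described next. The class Infl_Mono, inflammatory monocytes, was the highest or overlapped the highest for Slfn1, Slfn2, Slfn5, Slfn8 and Slfn9 in all 4 libraries, among classes with at least 50 cells. Slfn2 in Infl_Mono stood at 1394 CPM in CTRL, 2205 CPM in IRF3/7, 1336 CPM in COX2i and 1509 CPM in COX2i + 5-AZA, a span of less than 2-fold. Slfn5 there stood at 803 CPM in CTRL, 959 CPM in IRF3/7, 827 CPM in COX2i and 546 CPM in COX2i + 5-AZA, so that COX2i + 5-AZA held the lowest value. Slfn1 stood at 287 CPM, 561 CPM, 342 CPM and 382 CPM in the same order of libraries.

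Slfn4 was different from the rest in its order of classes. In Infl_Mono it stood at 213 CPM (174 to 258) in CTRL, 4184.5 CPM (4152 to 4218) in IRF3/7, 660 CPM (597 to 728) in COX2i and 995 CPM (964 to 1027) in COX2i + 5-AZA. In neutrophils it stood at 275 CPM (220 to 340) in 65 CTRL cells and at 1746 CPM (1651 to 1845) in 196 COX2i + 5-AZA cells, the highest class of both libraries, although the CTRL interval overlapped that of Infl_Mono. The 49 neutrophils of IRF3/7 stood at 6360 CPM (5987 to 6751) and the 5 of COX2i at 1087 CPM (757 to 1512), both below the cell number used for the order of classes. Neutrophils of CTRL therefore held less Slfn4 than those of COX2i + 5-AZA. Their level was also below the values from the few neutrophils of IRF3/7 and COX2i. Infl_Mono of CTRL held less Slfn4 than Infl_Mono of the other libraries.

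Conventional dendritic cells of type 2 (cDC2), which present antigen to CD4+ T cells, reached the level of Infl_Mono in IRF3/7 for most members. Slfn1 stood at 606 CPM (565 to 650) in cDC2 of IRF3/7 and Slfn5 at 1016 CPM (962 to 1072), both the highest class of that library and both overlapping Infl_Mono. Slfn2 at 2199.6 CPM and Slfn8 at 450.0 CPM also overlapped Infl_Mono. Slfn4 did not, at 1118 CPM (1062 to 1177) in cDC2. Type 1 dendritic cells (cDC1), which cross-present antigen to CD8+ T cells, numbered 38 in IRF3/7, and their Slfn5 level was 1867 CPM (1681 to 2069).

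Slfn9 had a second class. In the cycling macrophages, TAM_cycling, it stood at 18.3 CPM (16.2 to 20.5) in CTRL, 19.0 CPM (17.6 to 20.5) in COX2i and 21.8 CPM (19.7 to 24.0) in COX2i + 5-AZA. In the macrophage class TAM_C1q it stood at 2.17 CPM (1.62 to 2.86), 2.45 CPM (1.74 to 3.35) and 2.57 CPM (1.80 to 3.56) in the same libraries. The intervals of these classes did not overlap in any of the 3 libraries, and the levels of the libraries within each class did. IRF3/7 held 20 cells of TAM_cycling and 7 of TAM_C1q, too few for this description. In those 20 cells Slfn9 stood higher, at 98.2 CPM (55.0 to 162) on 15 UMIs, and the 7 cells held 0 UMIs.

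IRF3/7 against CTRL asks what overexpression of both factors by the cancer cells goes with in the immune cells. All 6 members were at least 2-fold higher in monocytes and macrophages, against 9.16% of the 11793 genes compared. The log2 ratio was 4.82 (4.73 to 4.92) for Slfn1 and 2.19 (2.17 to 2.22) for Slfn2. It was 7.26 (7.18 to 7.34) for Slfn4, a 153-fold difference. Among the long forms it was 3.89 (3.83 to 3.94) for Slfn5, 3.40 (3.33 to 3.47) for Slfn8 and 2.29 (2.11 to 2.48) for Slfn9. The median over the members was 3.64 and that over all genes was -0.55. Slfn3 was at 0.81 (0.66 to 0.97), under the 2-fold line.

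The lists of related genes gave the scale of these ratios. Of 16 genes skewed to type I interferon, 15 were at least 2-fold higher, with a median of 5.34 and Ifi44 (6.69), Isg15 (6.05), Ifit2 (5.76) and Oasl1 (5.70) as the highest, so that Slfn4 lay above each of them. Of 16 genes skewed to interferon-γ, all 16 were at least 2-fold higher, with a median of 3.82. Of 7 genes that cleave, protect or process transfer RNA, only Rnh1, the inhibitor of angiogenin-type nucleases, was at least 2-fold higher (1.09), and Rtcb, Nsun2, Ang and Elac2 were at least 2-fold lower (-1.60 to -1.04), as were 32.2% of all genes compared. The 12 nearest genes beside the cluster had a median of -0.40. Ccl5, a chemokine, was the 1 neighbour at least 2-fold higher (4.61), and Nle1 (-1.60) and Ccl9 (-1.07) were at least 2-fold lower.

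Within inflammatory monocytes the ratios of all 6 members were smaller than over monocytes and macrophages together. Infl_Mono, with 4335 cells in IRF3/7 and 93 in CTRL, was the only class of the main population with at least 50 cells in both libraries. There the log2 ratio was 4.30 (4.02 to 4.59) for Slfn4. It was 0.97 (0.72 to 1.22) for Slfn1, 0.66 (0.55 to 0.77) for Slfn2, 0.26 (0.11 to 0.40) for Slfn5 and 0.52 (0.29 to 0.76) for Slfn8. Slfn9, at 0.07 (-0.63 to 0.86), had an interval that held both directions. Slfn4 was thus the member that stayed past 2-fold within inflammatory monocytes, a class that was itself partly defined by Slfn4. Of the 9996 genes compared in that class, 6.17% were at least 2-fold higher.

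Dendritic cells and the non-immune cells left after the sort gave large ratios for more members. The share of all genes past 2-fold was not counted in these classes, so the ratios are given gene by gene. In cDC2 the log2 ratio was 4.74 (4.37 to 5.14) for Slfn1, 2.09 (2.00 to 2.19) for Slfn2 and 8.80 (7.75 to 10.11) for Slfn4. The last rested on 7 UMIs, or 2.51 CPM, in 645 CTRL cells against 1466 UMIs in 390 IRF3/7 cells. Slfn5 was at 3.16 (2.98 to 3.34), Slfn8 at 3.11 (2.85 to 3.38) and Slfn9, on 6 UMIs in CTRL, at 3.89 (2.65 to 5.42). In the non-immune class Myofibrobl, 172 cells in IRF3/7, the ratio was 4.23 (3.78 to 4.72) for Slfn4, 3.54 (3.15 to 3.95) for Slfn8 and 2.72 (1.82 to 3.71) for Slfn1, the last on 43 against 14 UMIs. It was 2.61 (2.20 to 3.04) for Slfn5 and 1.61 (1.41 to 1.81) for Slfn2, while Slfn9, at 0.70 (0.21 to 1.18), was under 2-fold.

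Levels of 4 monocyte markers are set beside these values, although Vcan and Ccr2 were not highest in monocytes and Vcan in Myofibrobl of CTRL was at 239% of its monocyte level. In cDC2 of IRF3/7 Slfn4 was at 27.5% of its monocyte level, Chil3 at 3.90%, Vcan at 5.20%, Ccr2 at 44.6% and Plac8 at 67.4%. In Myofibrobl of IRF3/7 Slfn4 was at 2.11% and Slfn8 at 17.4%, with Chil3 at 1.35%, Ccr2 at 1.74%, Plac8 at 2.73% and Vcan at 69.1%. In natural killer (NK) cells of IRF3/7 Slfn4 was at 15.1% and Slfn8 at 44.2%, with Chil3 at 5.10%, Vcan at 7.80%, Plac8 at 43.4% and Ccr2 at 121%. The markers thus differed widely among themselves in each class, and in the non-immune cells Slfn4 lay within the range of Chil3, Ccr2 and Plac8 while Slfn8 lay above those 3 and below Vcan. The part of free RNA in these levels was not tested.

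COX2i against CTRL asks what the COX2 inhibitor alone goes with. None of the 6 members was at least 2-fold higher or lower, against 1.93% of the 11905 genes compared being higher and 4.7% lower. The log2 ratio was 0.56 (0.44 to 0.67) for Slfn1, -0.13 (-0.16 to -0.11) for Slfn2 and 0.48 (0.38 to 0.58) for Slfn4. It was -0.21 (-0.28 to -0.14) for Slfn5, 0.05 (-0.03 to 0.14) for Slfn8 and 0.78 (0.60 to 0.96) for Slfn9. The type I list had a median of 0.44 with 1 of 16 genes at least 2-fold higher, and the interferon-γ list had a median of 1.25 with 10 of 16. The family was therefore nearer in value to the type I list here, a description of medians with no test.

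Single classes held larger ratios. Slfn4 in Infl_Mono was at 1.63 (1.32 to 1.96), and in the same class Slfn1, Slfn2, Slfn5, Slfn8 and Slfn9 had intervals that held both directions. In Ctsk_Macro, a class with 157 cells in COX2i and 380 in CTRL, Slfn1 was at 2.64 (1.22 to 4.29) on 16 against 6 UMIs, Slfn4 at 2.17 (1.10 to 3.31) and Slfn5 at 1.50 (1.13 to 1.88). In TAM_cycling Slfn1 was at 1.37 (1.03 to 1.72). The ratio of Slfn9 came with the class mix. When the CTRL levels of 5 classes were combined in the proportions of COX2i, 0.73 of its log2 ratio of 0.79 over those classes was carried by the proportions and 0.06 by the levels within classes. TAM_cycling numbered 3164 cells in COX2i and 1457 in CTRL.

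COX2i + 5-AZA against COX2i asks what adding the demethylating agent goes with. Slfn1, Slfn4, Slfn5 and Slfn8, 4 of the 6 members, were at least 2-fold higher, against 6.16% of the 11940 genes compared. The log2 ratio was 2.28 (2.20 to 2.35) for Slfn1, 2.43 (2.37 to 2.50) for Slfn4, 1.24 (1.18 to 1.30) for Slfn5 and 1.06 (0.99 to 1.12) for Slfn8. Slfn2 was just under the line at 0.92 (0.90 to 0.94). Slfn9 was at -0.26 (-0.41 to -0.11), near the median of all genes, which was -0.19. Slfn3 was lower too, at -0.53 (-0.64 to -0.41). The type I list had a median of 1.75 and the interferon-γ list one of 2.08, with 15 of 16 genes at least 2-fold higher in each. No tRNA gene was past 2-fold, and of the neighbours Ccl5 alone was higher, at 3.45.

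These ratios rested in large part on which classes were present. Monocytes were 558 of the 7378 cells of the main population in COX2i and 4684 of 8801 in COX2i + 5-AZA. With COX2i levels combined in the proportions of COX2i + 5-AZA, the proportions carried 2.07 for Slfn1, 0.56 for Slfn2, 1.94 for Slfn4, 1.60 for Slfn5 and 1.11 for Slfn8. The levels within classes carried 0.22, 0.35, 0.55, -0.32 and -0.07 in the same order. In the other order of the split the within-class parts were 1.16, 0.50, 1.24, 0.30 and 0.47, so the split depends on which library's levels are held fixed. The proportions were set by the tumours and by the clustering together, which cannot be told apart.

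The macrophage classes with at least 50 cells in both libraries, TAM_C1q, TAM_Spp1 and TAM_cycling, had higher levels in COX2i + 5-AZA for most members. The monocyte classes had them for Slfn2 and Slfn4. TAM_H2Ab1, with 41 cells in COX2i and 419 in COX2i + 5-AZA, went the other way for every member. Slfn5 stood there at 511 CPM (430 to 603) in COX2i and 180 CPM (168 to 193) in COX2i + 5-AZA. Slfn8 fell with intervals apart too, and those of Slfn1, Slfn2, Slfn4 and Slfn9 overlapped. In TAM_cycling Slfn1 was at 13.8 CPM in COX2i and 56.7 CPM in COX2i + 5-AZA, a log2 ratio of 2.04 (1.88 to 2.20). Slfn4 was at 1.77 (1.62 to 1.92) there, at 1.53 (1.35 to 1.73) in TAM_C1q and at 1.20 (1.01 to 1.39) in TAM_Spp1. Slfn5 was at 1.06 (0.92 to 1.21) in TAM_cycling but at -0.46 (-0.71 to -0.22) in TAM_Spp1. Over all monocytes Slfn1 was at -0.058, Slfn5 at -0.82 and Slfn8 at -0.44, and no member was past 2-fold, against 3.18% of the 10658 genes compared being higher and 6.27% lower. In Monocyte_1, with 394 and 3640 cells, Slfn1 was at -0.04 (-0.19 to 0.11), Slfn4 at 0.22 (0.07 to 0.38), Slfn5 at -0.49 (-0.65 to -0.32) and Slfn8 at -0.39 (-0.58 to -0.20). The direction of Slfn5 thus differed between cycling macrophages and monocytes, and that difference was not tested.

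Dendritic cells had higher levels of several members as well. In cDC2 Slfn4 stood at 7.16 CPM in COX2i and 54.9 CPM in COX2i + 5-AZA, a log2 ratio of 2.94 (2.25 to 3.67), and Slfn1 was at 1.79 (1.45 to 2.13). Slfn9 stood at 7.46 CPM on 25 UMIs and 2.29 CPM on 3 UMIs in cDC2, a log2 ratio of -1.71 (-4.08 to 0.01) whose interval held both directions. In cDC1 Slfn5 stood at 111 CPM (86.7 to 141) in 79 cells and 367 CPM (313 to 427) in 60 cells, a log2 ratio of 1.72 (1.31 to 2.15). In NK cells Slfn1 was at 2.69 (0.80 to 5.76), on 2 UMIs in 50 cells of COX2i.

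COX2i + 5-AZA against CTRL shares a library with both comparisons above and is given for its own values. Slfn1, Slfn4, Slfn5 and Slfn8, at 2.83 (2.74 to 2.93), 2.91 (2.83 to 2.99), 1.03 (0.97 to 1.09) and 1.11 (1.04 to 1.18), were at least 2-fold higher, against 5.65% of the 12001 genes compared. Slfn2 was at 0.79 (0.77 to 0.81) and Slfn9 at 0.52 (0.34 to 0.70). Over monocytes alone, chosen after seeing the data, 0 members were at least 2-fold higher and 3 were lower, Slfn5 at -1.67, Slfn8 at -1.02 and Slfn9 at -1.76, and Slfn1 and Slfn2 were at -0.051 and -0.23. Slfn4 went the other way in monocytes, at 0.80. Of the 10599 genes compared there, 4.38% were higher and 10.8% lower, or 1.7% and 5.11% of those with at least 20 UMIs in each library. With classes of at least 20 cells in both libraries, 2 members stayed past 2-fold under the class mix of CTRL and 0 under that of COX2i + 5-AZA, against 4.33% and 4.13% of all genes being higher. Within TAM_cycling Slfn1 reached 3.41 (3.09 to 3.75), and in cDC2 Slfn4 reached 4.45 (3.33 to 5.81).

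COX2i + 5-AZA against IRF3/7 sets the drug pair beside the genetic route. All 6 members were at least 2-fold lower in COX2i + 5-AZA, against 6.63% of the 11705 genes compared. The log2 ratio was -4.35 (-4.38 to -4.32) for Slfn4, -2.86 (-2.90 to -2.82) for Slfn5 and -2.29 (-2.34 to -2.24) for Slfn8. It was -1.99 (-2.03 to -1.95) for Slfn1, -1.77 (-1.93 to -1.61) for Slfn9 and -1.41 (-1.42 to -1.39) for Slfn2. The type I list had a median of -3.02 with 15 of 16 genes at least 2-fold lower, and the interferon-γ list a median of -0.15 with 2 of 16. On the 3 classes with at least 50 cells in both libraries, 1 member stayed past 2-fold under the class mix of IRF3/7 and 4 under that of COX2i + 5-AZA, against 5.39% and 5.49% of all genes being lower. Within Infl_Mono Slfn4 was at -2.07 (-2.12 to -2.03) and the other 5 members lay between -0.91 and -0.55.

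**Figure D2:**
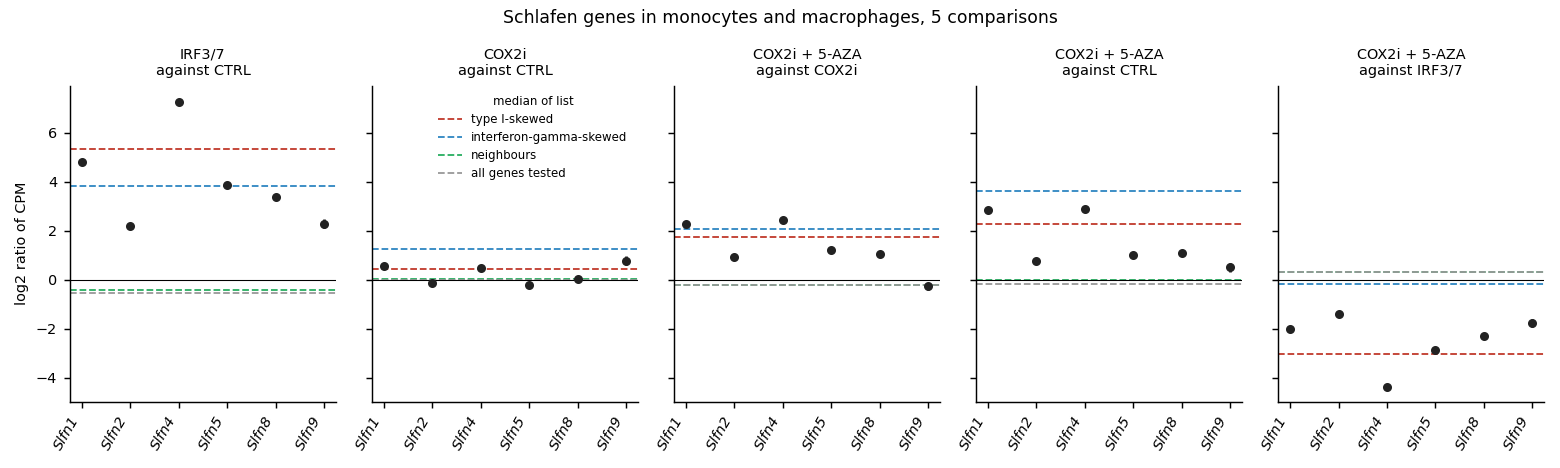
Log2 ratio of CPM in monocytes and macrophages (vertical axis) for each of the 6 members (horizontal axis) in the 5 comparisons, with exact 95% intervals for counting error, and the medians of 4 gene lists as dashed lines. Slfn4 lies above the type I median in IRF3/7 against CTRL (7.26 against 5.34), and all 6 members lie within 0.78 of zero in COX2i against CTRL.

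Monocytes were then matched on their interferon response, to ask whether members differed between libraries at a like level of it. Cells were thinned to 2000 UMIs and binned by the summed UMIs of the 16 type I genes, none of which is a member, although Irf7 is 1 of them and its vector was in the cancer cells of IRF3/7. The mean list UMIs per monocyte were 18.9 in CTRL, 40.1 in IRF3/7, 12.3 in COX2i and 10.1 in COX2i + 5-AZA. In the bin of 11 to 20 list UMIs, Slfn4 stood at 500.0 CPM in 24 CTRL cells, 2321 CPM in 560 IRF3/7 cells, 658 CPM in 98 COX2i cells and 591 CPM in 787 COX2i + 5-AZA cells. IRF3/7 alone was high, and the other libraries lay near each other. The monocytes were of different classes, and Slfn4 is a leading gene of Infl_Mono. Before binning Infl_Mono made up 4335 of 4596 monocytes in IRF3/7, 93 of 139 in CTRL, 130 of 558 in COX2i and 764 of 4684 in COX2i + 5-AZA. The classes within a bin were not counted.

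In this bin the log2 ratio of COX2i + 5-AZA to IRF3/7 was -1.97 (-2.08 to -1.86) for Slfn4. It was -0.39 (-0.56 to -0.22) for Slfn1, -0.37 (-0.46 to -0.29) for Slfn2, -0.56 (-0.73 to -0.39) for Slfn5 and -0.70 (-0.93 to -0.46) for Slfn8. The cells of IRF3/7 were slightly higher within the bin, at a mean of 16.1 list UMIs against 14.4. For IRF3/7 against CTRL, on 24 CTRL cells, Slfn4 was at 2.22 (1.64 to 2.86), Slfn1 at 0.32 (-0.34 to 1.06) and Slfn5 at -0.84 (-1.28 to -0.36). For COX2i + 5-AZA against COX2i, Slfn4 was at -0.15 (-0.42 to 0.12), Slfn1 at 0.10 (-0.26 to 0.48) and Slfn5 at -0.88 (-1.16 to -0.59). In this bin Slfn4 was thus more than 2-fold higher in IRF3/7 than in CTRL and in COX2i + 5-AZA, while Slfn8 was past 2-fold, at 1.25 (0.11 to 2.70), against CTRL. The share of all genes past 2-fold was not counted in the bins, so these are values of single genes. In the bin of 6 to 10 list UMIs, with 1206 cells of COX2i + 5-AZA and 95 of IRF3/7, Slfn4 was at -2.27, Slfn5 at -1.37, Slfn8 at -1.10, Slfn2 at -0.55 and Slfn1 at -0.49. Slfn5 and Slfn8 were also past 2-fold there, again with no share of all genes to set beside them.

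**Figure D3:**
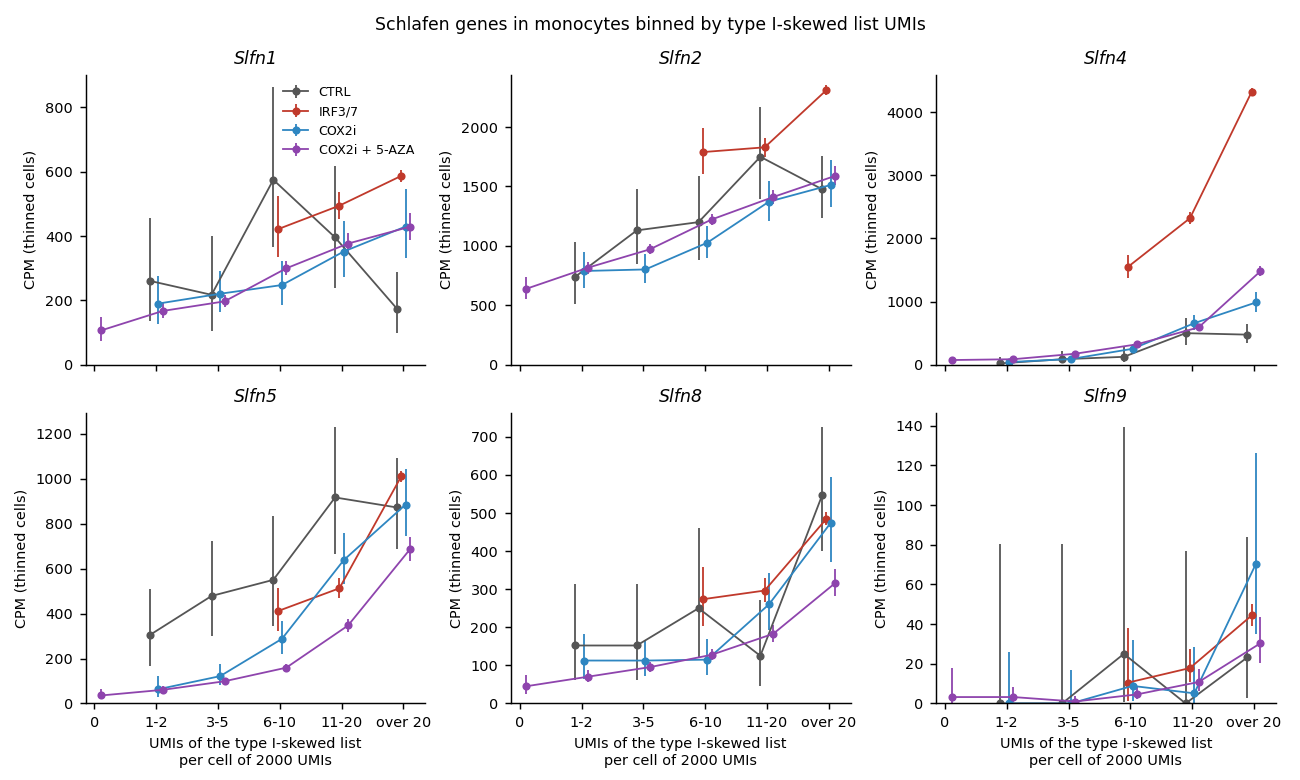
Level of the members (CPM, linear axis) in monocytes thinned to 2000 UMIs, against the summed UMIs of 16 type I interferon genes per cell in bins, by library, for bins with at least 20 cells and with exact 95% intervals for counting error. The IRF3/7 line of Slfn4 lies above the others in the bin of 11 to 20 UMIs (2321 CPM against 500.0 to 658 CPM).

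The share of cells with a UMI was compared after thinning each cell to 2000 UMIs, with shallower cells left out. Slfn4 was found in 4.53% (4.06 to 5.02) of 7402 monocytes and macrophages of CTRL, 94.1% (93.3 to 94.8) of 4060 in IRF3/7, 5.81% (5.28 to 6.38) of 7191 in COX2i and 24.4% (23.5 to 25.3) of 8309 in COX2i + 5-AZA. The cells left out numbered 212, 975, 187 and 492, and without thinning the shares were 10.5%, 97.3%, 14.0% and 43.3%. The non-immune Myofibrobl cells held it in 0.370%, 14.7%, 1.50% and 0% of thinned cells, the last being 0 of 159, and in 3.43%, 55.2%, 4.82% and 11.3% without thinning. Median depth before thinning was 3534 UMIs in the IRF3/7 monocytes and macrophages and 20965.5 UMIs in the Myofibrobl cells of that library. Thinning a deeper cell to the same number of UMIs removes more of any stray UMIs it holds, so the Myofibrobl share is set beside the others and is not a strict background.

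Slfn2 was found in 55.4%, 96.0%, 51.9% and 74.1% of the thinned monocytes and macrophages in the order CTRL, IRF3/7, COX2i and COX2i + 5-AZA, against at most 21.2% of Myofibrobl cells. It was the member present in most cells of all libraries. Slfn9 was found in 1.08%, 7.32%, 2.03% and 1.65%, against 1.29%, 5.29%, 1.39% and 1.89% of Myofibrobl cells. Myofibrobl is no background for Slfn9, since in CTRL it held 8.93 CPM (7.14 to 11.02) there against 2.17 CPM (1.62 to 2.86) in TAM_C1q, where its thinned share was 0.418% (0.223 to 0.714). In TAM_cycling its thinned share was 3.52% (2.64 to 4.61) in CTRL, 3.75% (3.12 to 4.48) in COX2i and 4.18% (3.17 to 5.41) in COX2i + 5-AZA, each above TAM_C1q of the same library with intervals apart. Median depth in CTRL was 10171 UMIs in TAM_cycling, 6943 in TAM_C1q and 15253 in Myofibrobl. In Infl_Mono the share was 3.33% (0.693 to 9.43) in CTRL, 7.56% (6.70 to 8.49) in IRF3/7, 8.33% (4.07 to 14.8) of 120 cells in COX2i and 3.80% (2.54 to 5.44) in COX2i + 5-AZA, and in CTRL, COX2i and COX2i + 5-AZA the intervals overlapped those of TAM_cycling.

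Several members were seen in the same cells in IRF3/7. At least 3 of the 6 were found in 51.5% (42.7 to 60.2) of 134 thinned monocytes of CTRL, 91.6% (90.6 to 92.5) of 3653 in IRF3/7, 36.7% of 490 in COX2i and 34.5% of 4273 in COX2i + 5-AZA. In macrophages the share was 2.83% in CTRL, 76.9% in IRF3/7, 2.54% in COX2i and 7.53% in COX2i + 5-AZA. The macrophages were of different classes, since TAM_H2Ab1 made up 385 of 439 in IRF3/7, against 19 of 7475 in CTRL, 41 of 6820 in COX2i and 419 of 4117 in COX2i + 5-AZA. In cDC2 it was 3.78%, 85.1%, 5.63% and 17.1%, and in NK cells 33.7% in IRF3/7 and 2.75% in COX2i + 5-AZA. In Myofibrobl it was 0% of 541 cells in CTRL, 5.88% (2.86 to 10.6) of 170 in IRF3/7, 0.231% in COX2i and 1.26% in COX2i + 5-AZA. The part of free RNA in these shares was not tested. The share in monocytes was higher in CTRL than in COX2i + 5-AZA, where Infl_Mono made up 93 of 139 and 764 of 4684 monocytes, so this order is not one within a class.

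**Figure D4:**
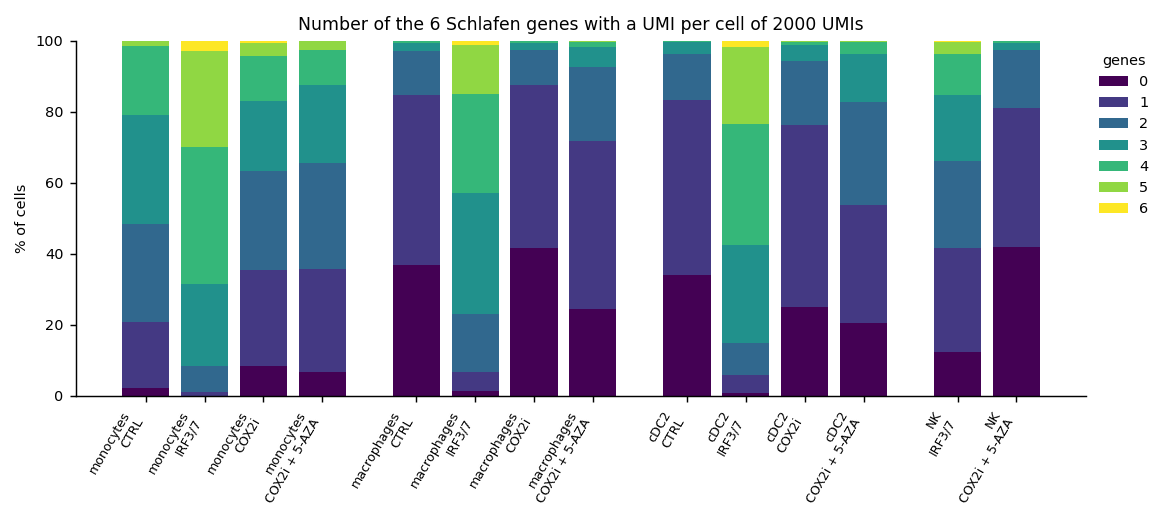
Percentage of cells (vertical axis) that hold a UMI of a given number of the 6 members, after thinning to 2000 UMIs, for monocytes, macrophages, cDC2 and NK cells by library. In IRF3/7 91.6% of monocytes, 76.9% of macrophages and 85.1% of cDC2 held at least 3 members.

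Patterns over 40 sums of cells, each a class in a library, were compared by Pearson's r of log2(CPM + 1) among 9031 genes. These sums share libraries, depth and cells, so r is a description. Slfn1 was most like Ifi209 (0.93), Trafd1 (0.92) and Ms4a4c (0.92), and Slfn2 was most like Il10ra (0.93), Gch1 (0.93) and Themis2 (0.93). By Spearman's rho none of these 3 was kept for Slfn2, and Slfn1 and Slfn2 were each other's most similar gene (0.96). Slfn4 was most like Ifi204 (0.89), its family member Slfn8 (0.88) and Rtp4 (0.88). Slfn5 was most like Trim30a (0.91), Oasl1 (0.91) and Uba7 (0.91), and Slfn8 was most like Oas3 (0.96), Parp14 (0.96) and Rnf213 (0.94). Slfn9 stood apart, with Slc25a22 (0.79), Tpst1 (0.77) and Prpf38a (0.75), at r of 0.17 to 0.43 with the other members and 0.74 with Slfn3. Slfn1, Slfn2, Slfn4, Slfn5 and Slfn8 had r of 0.73 to 0.91 with each other.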

How the data were processed

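The authors sorted live CD45+ cells, pooled 3 tumours per group, fixed the cells and assayed them with the 10x Chromium Fixed RNA kit, in which ligated probe pairs are counted by UMI. Per the submitters' processing notes they used Cell Ranger 7.1.0 with mm10. For 4 libraries the authors deposited unnormalised UMI counts, after their own filters on cells and genes, together with their cell classes. No replicate library exists, so no test between groups was run.

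Counts were summed over cells and scaled to CPM with exact Poisson intervals. Log2 ratios carry exact conditional intervals and shares carry Clopper-Pearson intervals, all at 95%. A count of 0 was set to 3 UMIs. A gene was compared where the 2 libraries summed to at least 20 UMIs, and was counted from 2-fold on. A class needed 50 cells. Cells were thinned to 2000 UMIs with seed 1. Median-of-ratios scaling moves the median gene by -0.52 in IRF3/7 against CTRL and by -0.19 to 0.31 in the other comparisons, and CPM was kept. Monocytes were Infl_Mono, Monocyte_1 and Monocyte_3, and macrophages TAM_C1q, TAM_Spp1, TAM_cycling, TAM_H2Ab1, Ctsk_Macro and Macro.

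The genes named are the 6 members, Slfn3, the extremes of each gene list, the nearest 6 coding genes on each side that are in the table, and the 3 genes most like each member. Members and lists were chosen with earlier results of these data known. Identity between proteins had been planned. Identity of coding bases and shared 50-base stretches from GENCODE transcripts were used instead, a choice made after the data were seen, as were the fits in monocytes alone, in macrophages alone and in bins of the type I list. Doublets were not called. Scripts were tested on simulated data. Python 3.11.15, numpy 2.4.6, scipy 1.17.1, pandas 2.3.3 and Biopython 1.88 were used.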

Additional observations from a re-analysis of the deposited data

Results flagged for a closer look

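In 3 cases a member was at least 2-fold lower in monocytes and at least 2-fold higher in 1 or more other classes under the same contrast. The difference was not tested in any of them, and each library is 1 pool of tumours. The share of all genes that meet the same rule was not counted, so the number of cases is not a result about the family.

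Slfn5 in COX2i + 5-AZA against CTRL had a log2 ratio of -1.67 (-1.81 to -1.53) in monocytes, where it stood at 204 CPM in 4684 cells and 648 CPM in 139 cells. The ratio was 1.25 in Myofibrobl, 1.15 in neutrophils and 1.37 in TAM_cycling. Slfn8 in the same contrast was at -1.02 (-1.23 to -0.80) in monocytes, against 1.16 in Macro, 1.90 in Myofibrobl and 1.46 in neutrophils. Infl_Mono made up 93 of the 139 monocytes in CTRL and 764 of the 4684 in COX2i + 5-AZA, and within Infl_Mono the ratio was -0.56 for Slfn5 and -0.39 for Slfn8.

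Slfn9 in COX2i against CTRL was at -1.04 (-1.89 to -0.16) in monocytes, on 33 against 20 UMIs, and at 1.79 (0.47 to 3.37) in cDC2, on 25 against 6 UMIs. Infl_Mono made up 130 of the 558 monocytes in COX2i, and the Slfn9 ratio within it was 0.10 (-0.87 to 1.10).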

How the results depend on the processing

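No paired analysis was possible because each group is 1 library, and for the same reason no replicate could be left out. Of the counts and percentages that answer a comparison, 72 kept their size within the limits used and 17 moved. On classes with 50 cells in both libraries and with the second library's class mix, the number of members at least 2-fold apart went from 6 to 1 in COX2i + 5-AZA against IRF3/7 (4 with the first library's mix). It went from 4 to 2 in COX2i + 5-AZA against COX2i (0 with the other mix) and against CTRL (2 with either mix on classes that hold 50.3% of the COX2i + 5-AZA cells, but 0 with that library's mix on the classes with 20 cells, which hold 92.1%). In IRF3/7 against CTRL it went from 6 to 1, but there Infl_Mono was the only such class, with 1.22% of the CTRL cells, so no mix was applied. On the 3 classes with 20 cells, 20.9% of the CTRL cells, it was 6 with the CTRL mix and 1 with the IRF3/7 mix. Over all genes the same calls took between 4.03% and 11.8%. In monocytes only, chosen after seeing the data, the number at least 2-fold higher was 2 for IRF3/7 against CTRL, beside 5% of all genes, and 0 for COX2i + 5-AZA against COX2i and against CTRL. In COX2i + 5-AZA against CTRL, 3 members and 10.8% of all genes were at least 2-fold lower in monocytes. In macrophages only, also chosen after seeing the data, 2 were at least 2-fold higher in COX2i + 5-AZA against COX2i and against CTRL, beside 4.89% and 4.25% of all genes. In IRF3/7 against CTRL 6 were higher in macrophages, beside 7.22% of all genes. In COX2i + 5-AZA against IRF3/7 6 were lower both in monocytes and in macrophages, beside 5.34% and 7.04% of all genes. Monocytes only also turned the direction of Slfn1 (-0.058), Slfn5 (-0.82) and Slfn8 (-0.44) in COX2i + 5-AZA against COX2i, and of Slfn1 (-0.051), Slfn5 (-1.67) and Slfn8 (-1.02) in COX2i + 5-AZA against CTRL, where Slfn2 (0.79 to -0.23) and Slfn9 (0.52 to -1.76), not past 2-fold before, turned too. With a 4-fold line, 4.17%, 0.260%, 2.19% and 2.37% of all genes were higher in the first 4 comparisons and 1.67% were lower in the last. By that line every member stayed in IRF3/7 against CTRL. Only Slfn1 and Slfn4 stayed in COX2i + 5-AZA against COX2i and against CTRL. Only Slfn4, Slfn5 and Slfn8 stayed in COX2i + 5-AZA against IRF3/7. With size factors, 15.6% of all genes were at least 2-fold higher in IRF3/7 against CTRL and 10.7% lower in COX2i + 5-AZA against IRF3/7. Of the 18 most similar genes, 9 stayed under Spearman's rho, none of them for Slfn2. Of the other values 140 stayed, 256 moved and 6, all of ratios past 2-fold, turned direction. Ratios under 2-fold changed sign in 8 further values, counted among those that stayed or moved, such as Slfn9 in COX2i against CTRL (-1.04 in monocytes only). Slfn9, with 391 UMIs in CTRL, is the member most limited by depth.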
